A study of Mus musculus with 41 samples.

Results

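Nonsense-mediated decay was examined through 9 genes, Upf1, Upf2, Upf3a, Upf3b, Smg1, Smg5, Smg6, Smg8 and Smg9, which were taken by gene symbol from the 51410 genes of the RNA-seq count tables. They were also looked up in a pair of gene lists from RNA immunoprecipitation. All 9 were found, each with 1 Ensembl identifier, and all 9 passed the filter on low counts in every comparison.

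Nonsense-mediated decay is a surveillance pathway that degrades mRNAs on which translation ends too early, most often where an exon junction complex still lies downstream of the stop codon. The RNA helicase UPF1 joins the terminating ribosome, and the kinase complex of SMG1 with SMG8 and SMG9 phosphorylates it once UPF2 and UPF3 proteins connect it to the exon junction. The proteins SMG5 and SMG6 then read the phosphorylated UPF1 and bring about cleavage, decapping and deadenylation. Several factors of the pathway are themselves encoded by mRNAs that the pathway degrades in mammalian cells, and in mouse embryonic stem cells (ESCs) the pathway is known to be needed for exit from pluripotency.

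The study asked how loss of CAPRIN1, a cytoplasmic RNA-binding protein found in stress granules, affects RNA in differentiating mouse ESCs. Cells of the R1 line (WT) and of knockout (KO) clones 2 and 4, each clone being 1 line, were grown without LIF in 1 µM retinoic acid for 4 days and then exposed to 2 µg/ml α-amanitin, which blocks RNA polymerase II, for 0, 2, 4 or 8 h. The groups were Caprin1 KO clone 2 (2 libraries at each time), Caprin1 KO clone 4 (1 library at 0 h, 2 at each later time) and WT (4 libraries at each time), 31 libraries in all, and all of them, also at 0 h, had received retinoic acid. Of 32 RNA-seq samples in the labels, replicate 1 of clone 4 at 0 h was not analysed here. The immunoprecipitation samples, 9 in all, were a control of Caprin1 KO genotype, cells in retinoic acid, cells in nocodazole, cells in arsenate and cells in ESC medium, and only lists of gene symbols were used from them.

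Caprin1 mRNA was low in the libraries of clone 2 and not in those labelled clone 4. In CPM, read counts scaled to a common library size by TMM, it lay between 106 and 196 CPM in the libraries of clone 2, between 989 and 1223 CPM in the libraries labelled clone 4, and between 765 and 1159 CPM in WT libraries. These counts do not measure CAPRIN1 protein, so whether clone 4 lacks it cannot be read from them. Clone 4 is therefore called by its label below, each clone is given separately, and a value for KO pools the clones as labelled. Total counts per library ran from 3953468 to 31565738 at 0 h and from 3460172 to 10566579 at the later times, with WT replicate 1 the shallowest at 0 h and WT replicate 2 at 4 h. The counts behind a single value ran from 82 (Smg9) to 6570 (Smg1). Summed CPM of 11 endoderm markers, all above 1 CPM in every group, were 59536 to 61338 in clone 2, 25466 in the library labelled clone 4 and 15102 to 17115 in WT at 0 h. Of 10 fibroblast feeder markers, Lum was under 1 CPM in each line, and in WT 2 markers in all were. The sums over all 10 were 782 to 785, 2704 and 964 to 1491 in the same order. For 10 ESC markers, all above 1 CPM, they were 1651 to 1743, 1125 and 884 to 991. These differences went with every comparison of lines given here, and their part in the results was not tested. In such bulk libraries, fewer cells of a type and less RNA per cell cannot be told apart. The labels do not say that replicates were separate cultures, so p-values measure the spread between these libraries, which may be technical.

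Promoter sequences are shown for 5 members whose levels moved apart in these data: Upf2, which differed most between clone 2 and WT, the paralogues Upf3a and Upf3b, which moved in opposite directions under α-amanitin in WT, and Smg1 and Smg6, the most raised and the most lowered at 8 h in WT. Each runs 5′ to 3′ on the strand of its gene, from 250 bases before to 50 bases after 1 RefSeq start per gene, on build GRCm38.p6: chr2:5951219-5951518 (plus) for Upf2, chr8:13785365-13785664 (plus) for Upf3a, chrX:37110273-37110572 (minus) for Upf3b, chr7:118243588-118243887 (minus) for Smg1 and chr11:74925604-74925903 (plus) for Smg6. The outermost RefSeq 5′ ends of Upf3a (chr8:13785055) and Smg1 (chr7:118244437) lie outside these windows. Where a gene has other starts, they were not described. Capitals mark every match, on either strand, to the motifs named after the sequences, with overlapping matches joined.
Upf2: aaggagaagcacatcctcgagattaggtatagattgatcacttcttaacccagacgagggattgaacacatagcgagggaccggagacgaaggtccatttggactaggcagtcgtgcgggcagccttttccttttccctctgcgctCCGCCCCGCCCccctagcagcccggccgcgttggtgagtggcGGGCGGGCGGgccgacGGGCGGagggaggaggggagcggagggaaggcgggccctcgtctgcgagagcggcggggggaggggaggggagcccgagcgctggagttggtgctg
Upf3a: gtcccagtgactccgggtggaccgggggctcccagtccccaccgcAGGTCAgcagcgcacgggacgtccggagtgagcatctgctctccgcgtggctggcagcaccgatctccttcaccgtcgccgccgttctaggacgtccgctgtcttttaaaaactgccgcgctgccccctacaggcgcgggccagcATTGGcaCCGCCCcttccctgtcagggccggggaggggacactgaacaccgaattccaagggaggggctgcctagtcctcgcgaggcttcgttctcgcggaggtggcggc
Upf3b: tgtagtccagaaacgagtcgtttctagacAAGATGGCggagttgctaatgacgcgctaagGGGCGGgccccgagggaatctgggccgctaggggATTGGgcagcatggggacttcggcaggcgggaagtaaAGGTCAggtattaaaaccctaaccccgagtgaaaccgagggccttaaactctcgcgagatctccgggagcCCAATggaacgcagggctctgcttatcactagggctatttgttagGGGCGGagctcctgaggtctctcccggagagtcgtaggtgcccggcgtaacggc
Smg1: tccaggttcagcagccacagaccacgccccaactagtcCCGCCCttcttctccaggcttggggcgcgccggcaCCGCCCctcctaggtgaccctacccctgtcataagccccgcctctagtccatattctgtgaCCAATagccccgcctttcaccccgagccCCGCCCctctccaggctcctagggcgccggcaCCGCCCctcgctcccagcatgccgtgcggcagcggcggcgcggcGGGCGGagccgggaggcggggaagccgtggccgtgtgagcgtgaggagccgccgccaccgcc
Smg6: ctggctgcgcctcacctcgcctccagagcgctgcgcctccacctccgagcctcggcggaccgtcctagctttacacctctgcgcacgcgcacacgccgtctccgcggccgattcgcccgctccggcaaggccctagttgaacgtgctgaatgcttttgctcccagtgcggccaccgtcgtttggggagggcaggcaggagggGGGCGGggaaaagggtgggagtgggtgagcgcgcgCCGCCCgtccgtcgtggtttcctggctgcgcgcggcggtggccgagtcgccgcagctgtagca

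All 9 members had a promoter in the RefSeq table, and 1 per gene was used. For Smg9 too, the outermost RefSeq 5′ end (chr7:24397517) lies outside the window (chr7:24399378-24399677). The windows held between 53.3% (Smg8) and 72.3% (Upf1) G and C and between 18 and 47 CpG dinucleotides, against medians of 52.67% and 7 over the 32851 promoters of the table. The GC box GGGCGG, searched on both strands as all motifs were, occurred in 7 of the 9 promoters (35.7% of all promoters), with 5 matches each in Upf2 and Smg1. CCAAT occurred in 4 of 9, Upf3a, Upf3b, Smg1 and Smg8 (37.4% of all). The retinoid receptor half-site AGGTCA occurred in 2 of 9, Upf3a and Upf3b (16.3% of all). The palindromic core of the NRF1 motif was found in Upf1 and Smg9 (0.971% of all), the YY1 core AAGATGGC in Upf3b (2.75% of all) and the ETS core CCGGAAG in Smg8 (8.86% of all). TATAAA (13.6% of all), the E-box CACGTG (7.15% of all) and a direct repeat of AGGTCA with 5 bases between (0.00913% of all) were in none of the 9 windows. A match describes letters in a window and was not measured as a binding site.

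Per length of gene, the helicase gene Upf1 was the highest member at 0 h in clone 2 and in WT. In clone 2 its level per length averaged 17.3 ± 0.519 CPM per kb of the exon length in the authors' tables (SD, n = 2), and Upf2 stood in second place at 14.4 ± 0.0481, above Smg8 (13.0 ± 0.484 CPM per kb) with no overlap. In WT, Upf1 averaged 17.1 ± 2.60 CPM per kb (n = 4), and Smg8 followed at 12.6 ± 0.253, Smg5 at 11.9 ± 1.03, Upf2 at 9.65 ± 1.24 and Upf3b at 8.71 ± 1.20 CPM per kb. The ranges of Smg8 and Smg5, of Smg5 and Upf2, and of Upf2 and Upf3b overlapped. The lower group was Upf3a (5.91 ± 0.520), Smg6 (5.63 ± 0.273), Smg1 (4.8 ± 0.202) and Smg9 (2.56 ± 0.421 CPM per kb), of which only Upf3a and Smg6 overlapped. The deposited length of Smg1 is 43.1 kb and was summed over annotated exons, so its level per length falls with every annotated exon that the cells do not use.

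**Figure D1:**
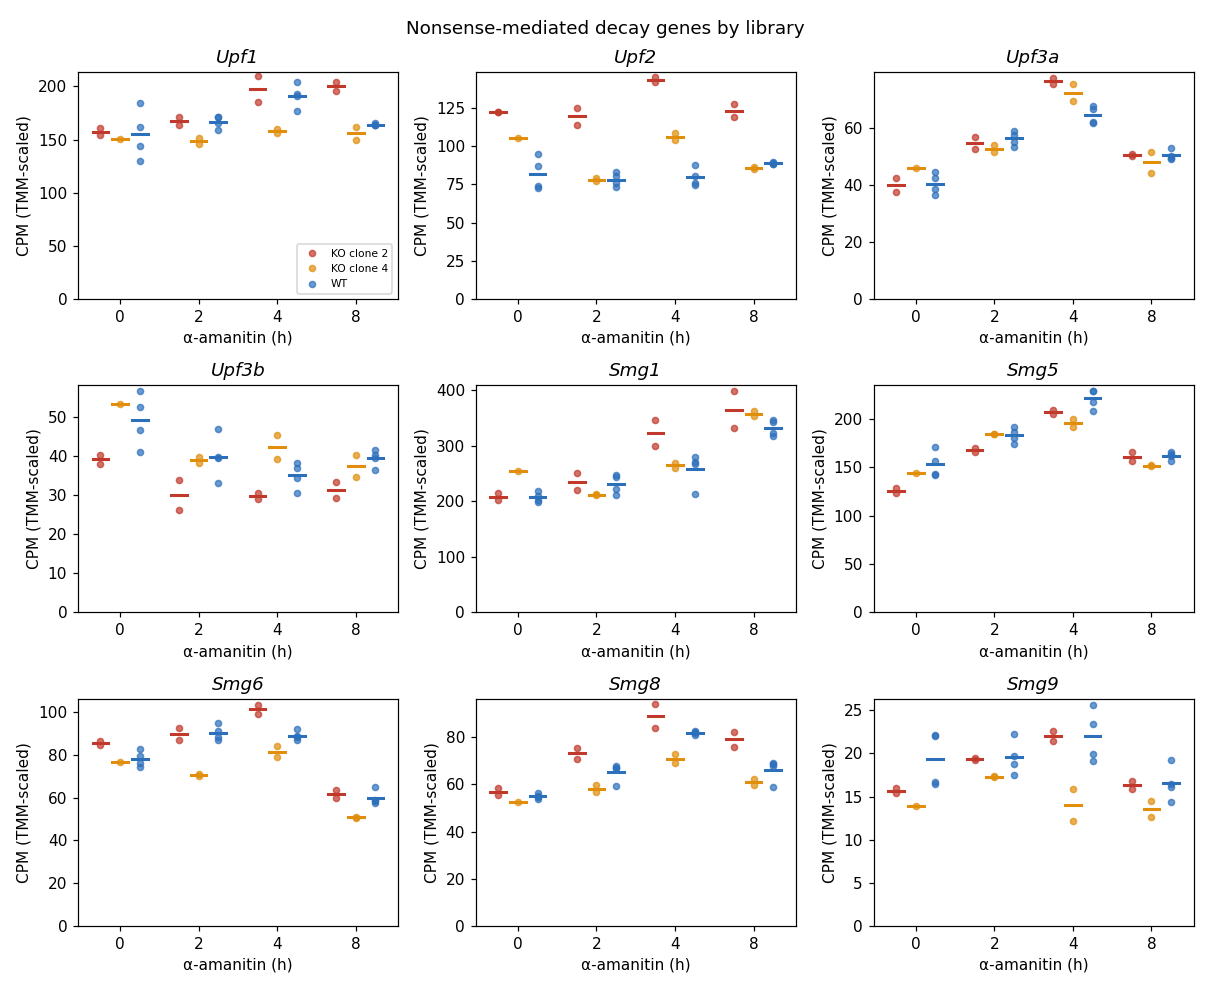
Levels of the 9 genes (TMM-scaled CPM, vertical axis from 0) against hours of α-amanitin, with 1 point per library and a bar at the mean, for KO clone 2, KO clone 4 and WT from left to right at each time. Upf2 is above WT in clone 2 at every time (114 CPM or more in clone 2, 94.7 CPM or less in WT), and Smg1 is highest at 8 h in WT (318 to 347 CPM).

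Few members were called with the KO label as a whole, and after α-amanitin more were called in each clone alone, as were more of all genes. With KO libraries pooled, edgeR's quasi-likelihood test with Benjamini-Hochberg adjustment over all genes called 1 of 9 members at 0 h (26.1% of all genes tested were called), 0 at 2 h (31.5%), 2 at 4 h (36.3%) and 0 at 8 h (17.3%). A call means a false discovery rate (FDR) under 0.05. At 2 and 8 h no member had an unadjusted p under 0.05 and DESeq2 called 0 as well. In clone 2 against WT the test called 1 of 9 members at 0 h (45.2% of all genes), 3 at 2 h (61.8%), 5 at 4 h (61.9%) and 5 at 8 h (63.6%). In the libraries labelled clone 4 against WT it called 0 at 0 h (15.9%), 2 at 2 h (41.3%), 6 at 4 h (47.1%) and 2 at 8 h (37.5%). At 0 h, 2 members had an unadjusted p under 0.05 for clone 4 and DESeq2 called 0. The clone comparisons share their WT libraries and the fit at 0 h assumes that the lone library labelled clone 4 varies like the others. The median log2 difference over the 9 members lay between -0.12 and 0.10 for the clones against WT, beside medians over all genes between -0.02 and 0.01. With library totals in place of TMM scaling, the median over all genes shifted by -0.10 to -0.18 (log2) in 10 comparisons, among them clone 2 against WT at each time, so differences are to be read relative to the median gene.

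**Figure D2:**
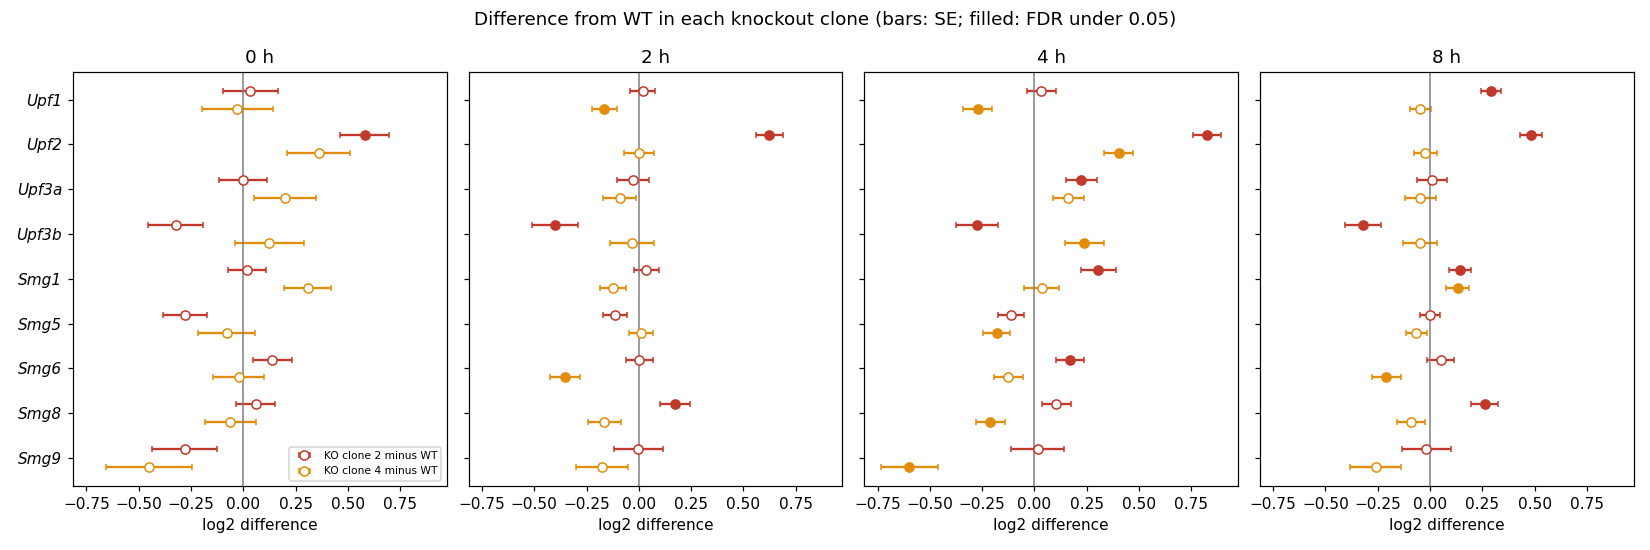
Log2 difference from WT (horizontal axis) of each member in KO clone 2 and KO clone 4 at 0, 2, 4 and 8 h, with bars for the SE and filled points for an FDR under 0.05. Upf2 is right of 0 in clone 2 at each time (0.48 to 0.82) and Upf3b is left of 0 in clone 2 (-0.27 to -0.40).

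Upf2, which encodes the adaptor that bridges UPF1 and UPF3 proteins, was the member that differed most from WT in clone 2. At 0 h it had 123 and 122 CPM in clone 2 and 105 CPM in the library labelled clone 4, against 74.3, 72.5, 87.0 and 94.7 CPM in WT. Every KO library lay above every WT library. It was 1.49-fold higher in clone 2 than in WT (log2 difference 0.58 ± 0.116, FDR 0.00194), while the value for clone 4 (0.36 ± 0.149, FDR 0.126) did not pass the test. For KO pooled it was 0.50 ± 0.12 (FDR 0.0179). That call was lost without clone 2 replicate 1 or 2 or WT replicate 1 or 2 (FDR at most 0.0744) and with library totals, where the value was 0.37.

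At 2 h Upf2 had 114 and 125 CPM in clone 2, 77.0 and 79.2 CPM in the libraries labelled clone 4, and 75.9, 82.9, 80.7 and 73.3 CPM in WT. Only the clone 2 libraries stood apart from WT (0.62 ± 0.0654, FDR 4.62e-12), and the value for clone 4 was -0.00 ± 0.0713 (FDR 0.993). At 4 h it had 142 and 145 CPM in clone 2, 104 and 108 CPM in clone 4, and 80.3, 76.1, 74.9 and 87.5 CPM in WT. All 3 lines were separate at that time, at 0.82 ± 0.0670 for clone 2 against WT (1.77-fold, FDR 8.97e-12) and 0.40 ± 0.0688 for clone 4 (FDR 1.96e-05). The pooled KO value at 4 h was 0.63 ± 0.12 (FDR 0.00516). At 8 h Upf2 had 119 and 128 CPM in clone 2, 85.3 and 86.7 CPM in clone 4, and 88.7, 90.0, 88.7 and 88.9 CPM in WT. Clone 2 was again above WT (0.48 ± 0.0527, FDR 8.51e-11) and clone 4 was just below WT without passing the test (-0.02 ± 0.0558, FDR 0.790). The call of Upf2 in clone 2 held at each of the 4 times in every alternative tried, including each library left out in turn, with values between 0.33 and 0.87.

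Upf1, the RNA helicase at the centre of the pathway, passed the test between lines only at times after α-amanitin. At 0 h it had 161 and 154 CPM in clone 2, 151 CPM in the library labelled clone 4, and 185, 161, 144 and 130.0 CPM in WT. These ranges overlapped. At 4 h it had 209.8 and 185 CPM in clone 2, 160.3 and 156 CPM in clone 4, and 191, 204, 193 and 177 CPM in WT. The clone 4 libraries were the lowest (-0.27 ± 0.0701 against WT, FDR 0.00211). The difference of clone 4 from WT at 2 h (-0.17 ± 0.0596, FDR 0.0209) was lost without clone 4 replicate 1 or 2 (FDR at most 0.208). At 8 h Upf1 had 205 and 196 CPM in clone 2, 162 and 149.7 CPM in clone 4, and 163, 166, 164 and 163 CPM in WT. Clone 2 was 1.23-fold above WT (0.29 ± 0.0480, FDR 9.24e-07), a call that held in every alternative tried with a value of 0.14 under library totals, and clone 4 did not pass the test (-0.05 ± 0.0493, FDR 0.49).

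The paralogues Upf3a and Upf3b encode adaptors that bind the exon junction complex, of which UPF3B is the stronger activator of decay in mammalian cells. In clone 2, Upf3b was below WT. It had 38.0 and 40.4 CPM in clone 2, 53.5 CPM in the library labelled clone 4, and 46.6, 41.1, 52.5 and 56.6 CPM in WT at 0 h. The clone 2 libraries were the lowest, but the difference did not pass the test (-0.32 ± 0.131, FDR 0.0674). At 2 h the values were 26.2 and 33.8 CPM in clone 2, 38.2 and 39.7 CPM in clone 4, and 33.1, 39.8, 47.0 and 39.5 CPM in WT. The ranges of clone 2 and WT overlapped at that time, and the difference of -0.40 ± 0.108 (FDR 0.00142) was lost without clone 2 replicate 1 (FDR 0.122). At 8 h Upf3b had 29.4 and 33.3 CPM in clone 2, 34.7 and 40.4 CPM in clone 4, and 41.6, 36.5, 40.4 and 39.5 CPM in WT. Clone 2 lay below WT without overlap (0.80-fold, -0.32 ± 0.0857, FDR 0.00112), and this call held with each library left out.

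At 4 h the clones lay on opposite sides of WT in Upf3b, with 29.0 and 30.6 CPM in clone 2, 39.3 and 45.4 CPM in clone 4, and 38.2, 30.7, 34.4 and 37.1 CPM in WT. Clone 2 stood at -0.27 ± 0.102 against WT (FDR 0.0209), a call lost without clone 2 replicate 1 or 2 or WT replicate 1 (FDR at most 0.169) and with DESeq2. Clone 4 stood at 0.24 ± 0.0949 (FDR 0.0399), a call lost without clone 4 replicate 2 or WT replicate 2 or 3 (FDR at most 0.398), with library totals and with DESeq2. Upf3a had 75.5 and 77.8 CPM in clone 2, 75.4 and 69.6 CPM in clone 4, and 66.7, 62.2, 67.9 and 61.7 CPM in WT at 4 h. Both clones were above WT, which gave 0.22 ± 0.0742 for clone 2 (FDR 0.0106, lost without clone 2 replicate 2 at FDR 0.0985 and with library totals), 0.16 ± 0.0740 for clone 4 (FDR 0.0728) and 0.19 ± 0.0655 for KO pooled (FDR 0.0475). The pooled call was lost in 7 of 8 fits that left out 1 library, all but the one without clone 4 replicate 2 (FDR at most 0.113), with library totals, with no filter and with DESeq2. At the other 3 times no comparison of a line with WT called Upf3a.

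In WT under α-amanitin the share of Upf3a in the mRNA rose and that of Upf3b fell. Counts give shares of a library and not amounts per cell, and the transcription block was not measured here. In WT, Upf3a had 44.5, 42.5, 38.6 and 36.6 CPM at 0 h, 57.7, 53.5, 59.2 and 55.3 CPM at 2 h, 66.7, 62.2, 67.9 and 61.7 CPM at 4 h, and 52.9, 49.3, 49.7 and 50.2 CPM at 8 h. Each later time lay above 0 h without overlap, by 0.49 ± 0.0668, 0.69 ± 0.0662 and 0.33 ± 0.0664 on the log2 scale (FDR 4.99e-07, 7e-11 and 9.55e-05). Upf3b in WT had 46.6, 41.1, 52.5 and 56.6 CPM at 0 h, 33.1, 39.8, 47.0 and 39.5 CPM at 2 h, 38.2, 30.7, 34.4 and 37.1 CPM at 4 h, and 41.6, 36.5, 40.4 and 39.5 CPM at 8 h. It was lower at 2 h (-0.31 ± 0.0957, FDR 0.0146), 4 h (-0.47 ± 0.0970, FDR 0.000109) and 8 h (-0.32 ± 0.0940, FDR 0.00509). The call at 2 h was lost without WT replicate 4 at 0 h or WT replicate 1 at 2 h (FDR at most 0.0668). The ranges at 0 h and 4 h did not overlap. Against 0 h, clone 2 called Upf3a higher at 2, 4 and 8 h (0.45, 0.93 and 0.33), and clone 4 at 4 h alone (0.65). Upf3b was called lower in clone 2 at 4 h alone (-0.39, lost with DESeq2). In clone 4 it was called lower at 8 h alone (-0.51, lost with the clones pooled).

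Per length, the order of the pair changed with time in every line. In clone 2 the ratio of Upf3a to Upf3b in CPM per kb was 0.843 ± 0.1102 at 0 h, 1.52 ± 0.195 at 2 h, 2.12 ± 0.0364 at 4 h and 1.33 ± 0.105 at 8 h (SD, n = 2). In the libraries labelled clone 4 it was 0.711 (1 library), 1.12 ± 0.0686, 1.42 ± 0.225 and 1.05 at 8 h, where both replicates gave the same rounded value. In WT it was 0.694 ± 0.150, 1.18 ± 0.175, 1.53 ± 0.143 and 1.05 ± 0.0418 (n = 4). Every library had more Upf3b than Upf3a per length at 0 h, and every library had more Upf3a at each later time. The order at 0 h rests on the deposited lengths, which were summed over annotated exons. In CPM alone, Upf3a was the higher at 0 h in clone 2 replicate 1 (42.6 against 38.0) and WT replicate 2 (42.5 against 41.1). At 4 and 8 h the ratios of clone 2 lay above all those of WT, between 2.09 and 2.14 at 4 h against 1.37 to 1.67 in WT.

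**Figure D3:**
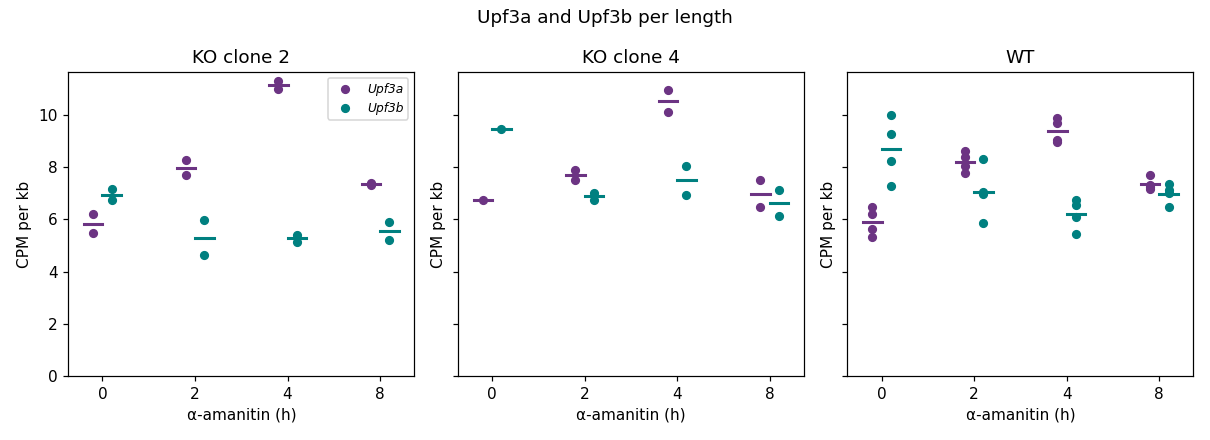
Level per length (CPM per kb of deposited exon length, vertical axis from 0) of Upf3a and Upf3b against hours of α-amanitin in KO clone 2, KO clone 4 and WT, with 1 point per library and a bar at the mean. In each line Upf3b is the higher at 0 h and Upf3a the higher at 4 h (9.41 against 6.20 CPM per kb on average in WT).

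Over time in clone 2, 3 of 9 members were called at 2 h against 0 h (11.8% of all genes tested), all 9 at 4 h (42.1%), and 6 at 8 h (28.4%). Of the 9 at 4 h, 8 were higher (20.3% of all genes) and 1 lower (21.8%), and leaving out any 1 of the 4 libraries reduced them to between 5 and 7. In the libraries labelled clone 4, 2 were called at 2 h (6.32%, lost without either clone 4 library of 2 h), 3 at 4 h (23.1%) and 3 at 8 h (19.5%). In WT, 5 members were called at 2 h against 0 h (27.7%), 7 at 4 h (52.2%) and 5 at 8 h (51.1%). Upf3b was the only called member that was lower at 2 h and 4 h. Comparisons within a line share its 0 h libraries. The summed level of the 9 members was 803 to 875 CPM at 0 h, 917 to 942 CPM at 2 h, 1006 to 1064 CPM at 4 h and 964 to 994 CPM at 8 h in WT. Every WT library of 4 h lay above every WT library of another time. Upf1 in WT was higher at 4 h than at 0 h (0.31 ± 0.0664, FDR 0.000174), and its values at 2 h (0.12 ± 0.0665) and 8 h (0.10 ± 0.0661) did not pass the test. Upf2 did not pass the test at any time in WT, with values of -0.08 ± 0.0666, -0.05 ± 0.0666 and 0.11 ± 0.0652.

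**Figure D4:**
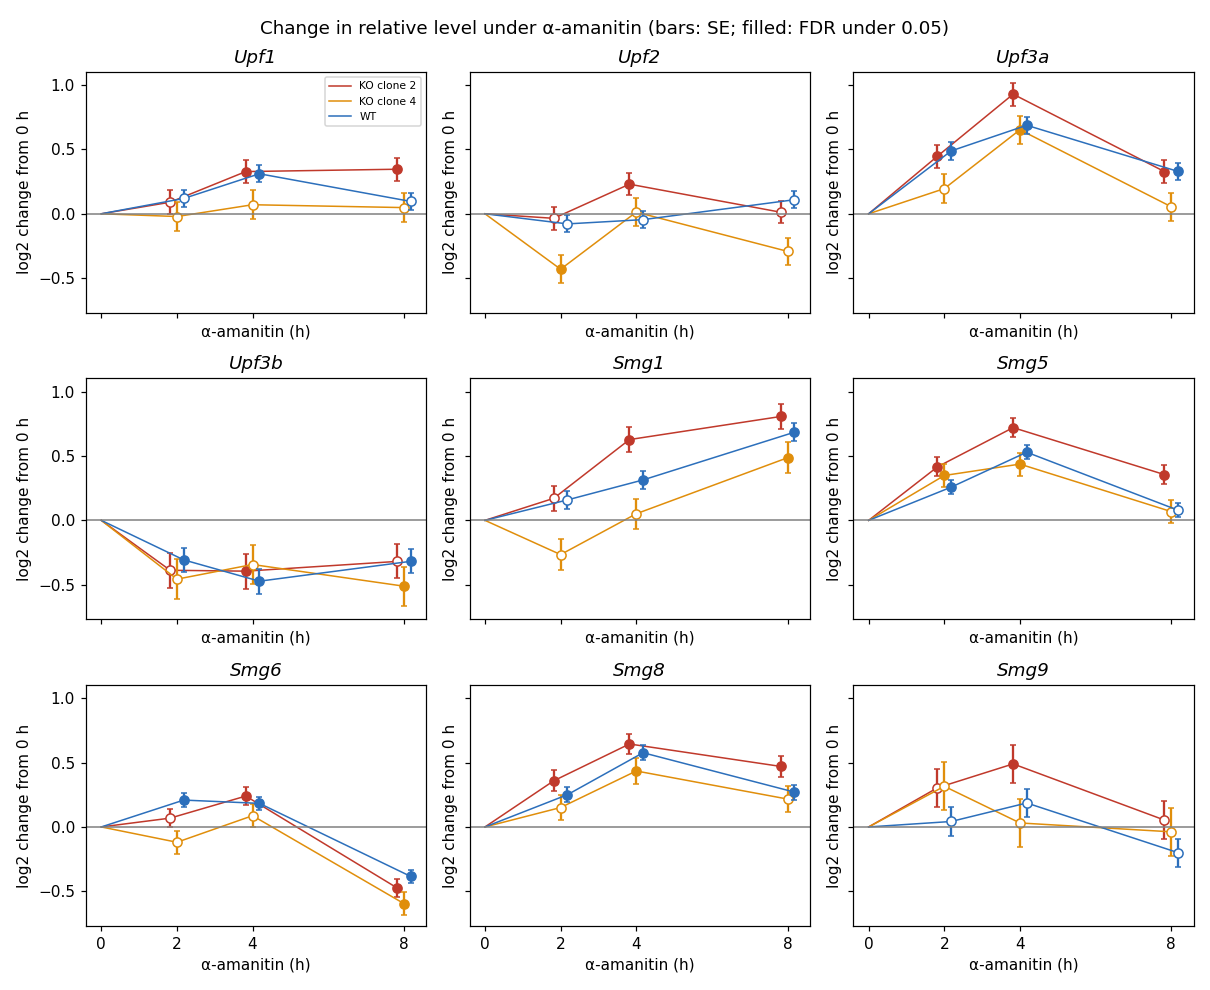
Log2 change from 0 h (vertical axis, common to all panels) of each member at 2, 4 and 8 h of α-amanitin in KO clone 2, KO clone 4 and WT, with bars for the SE and filled points for an FDR under 0.05. Smg1 climbs to 0.69 in WT at 8 h, Smg6 ends at -0.38, and Smg5, Smg8 and Upf3a peak at 4 h.

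Among the genes of the kinase complex, Smg1, which encodes the kinase of UPF1, was higher at 8 h than at 0 h in every line. Its change over 8 h was 0.81 ± 0.0968 in clone 2 (FDR 7.76e-08), 0.49 ± 0.12 in the libraries labelled clone 4 (FDR 0.00347) and 0.69 ± 0.0694 in WT (FDR 4.99e-10), and the changes in both clones held in every alternative tried. In clone 2 it had 203 and 214 CPM at 0 h, 219 and 250.2 CPM at 2 h, 299 and 346 CPM at 4 h, and 331 and 398 CPM at 8 h. In clone 4 it had 255 CPM at 0 h, 212 CPM in both libraries at 2 h, 260.4 and 268 CPM at 4 h, and 353 and 362 CPM at 8 h. The values of clone 4 at 2 h (-0.27 ± 0.118) and 4 h (0.05 ± 0.119) against 0 h did not pass the test. In WT it had 209.9, 202, 218 and 198 CPM at 0 h, 222, 243, 211 and 248 CPM at 2 h, 213, 266, 270.5 and 279 CPM at 4 h, and 323, 318, 342 and 347 CPM at 8 h. The 8 h libraries lay above all earlier ones, at 1.61-fold the level of 0 h, and 8 h was higher than 4 h (0.37 ± 0.0697, FDR 4.15e-05). At 4 h clone 2 was above WT (0.31 ± 0.0833, FDR 0.00289), a call lost without clone 2 replicate 2 (FDR 0.119) and with library totals. At 8 h Smg1 was called in clone 2 at 0.14 ± 0.0535 (FDR 0.0204), with a value of -0.01 under library totals. It was called in clone 4 at 0.13 ± 0.0535 (FDR 0.0495) and lost that call without either clone 4 library or WT replicate 1, 2 or 3 (FDR at most 0.263), with DESeq2 or its size factors, with library totals and with no filter. The clone 2 call at 8 h was lost without clone 2 replicate 2 or WT replicate 1 or 2 (FDR at most 0.934, with a value of 0.01 without clone 2 replicate 2).

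Smg8 and Smg9 encode subunits that hold the kinase in check. In WT, Smg8 had 56.3, 54.7, 55.3 and 53.7 CPM at 0 h, 66.8, 67.9, 59.3 and 66.9 CPM at 2 h, 81.1, 82.5, 82.4 and 81.6 CPM at 4 h, and 69.3, 68.8, 59.0 and 67.8 CPM at 8 h. All libraries of each later time exceeded all of 0 h, and the change was 0.58 ± 0.0589 at 4 h (1.49-fold, FDR 2.94e-10) and 0.27 ± 0.0589 at 8 h (FDR 0.000242). Smg8 in clone 2 had 82.2 and 75.9 CPM at 8 h, where the libraries labelled clone 4 had 62.1 and 59.8 CPM. Clone 2 lay above every WT library (0.26 ± 0.0653, FDR 0.000588, lost with library totals), and clone 4 did not pass the test at 8 h (-0.09 ± 0.0684, FDR 0.309). At 2 h clone 2 was called at 0.17 ± 0.0727 (FDR 0.0346) and lost that call without either clone 2 library or WT replicate 3 (FDR at most 0.252), with library totals, with no filter and with DESeq2. At 4 h clone 4 was below WT at -0.21 ± 0.0710 (FDR 0.0161) and lost that call without either clone 4 library (FDR at most 0.153) and with no filter.

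Smg9 had the fewest reads of the 9 members. At 4 h it had 22.6 and 21.4 CPM in clone 2, 15.9 and 12.2 CPM in the libraries labelled clone 4, and 20.0, 25.7, 23.4 and 19.2 CPM in WT. Clone 4 lay below every other library, at 0.661-fold the WT level (-0.60 ± 0.135, FDR 0.000588), and this held in every alternative tried. At 0 h all 3 KO libraries (16.0 and 15.4 CPM in clone 2, 13.9 CPM in clone 4) lay below all WT libraries (22.0, 22.1, 16.4 and 16.7 CPM), but the pooled difference of -0.35 ± 0.160 did not pass the test (FDR 0.136). In WT, Smg9 was lower at 8 h than at 4 h (-0.39 ± 0.116, FDR 0.00652) and no time passed the test against 0 h.

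Smg5 and Smg6 encode effectors that bind phosphorylated UPF1, SMG6 as the endonuclease that cuts near the stop codon and SMG5 as an adaptor for decay from the ends. Smg6 was lower at 8 h than at 0 h in every line, by a change of -0.47 ± 0.0731 in clone 2 (FDR 6.59e-06), -0.60 ± 0.0886 in clone 4 (FDR 7.08e-06) and -0.38 ± 0.0537 in WT (FDR 3.15e-07). Smg6 in WT had 79.7, 83.0, 76.3 and 74.4 CPM at 0 h, 88.4, 95.1, 91.3 and 87.2 CPM at 2 h, 86.9, 92.0, 88.3 and 89.1 CPM at 4 h, and 58.8, 57.6, 64.9 and 58.7 CPM at 8 h. It was higher at 2 h (0.21 ± 0.0528, FDR 0.00263) and 4 h (0.18 ± 0.0530, FDR 0.00404) and lower at 8 h (0.766-fold), and no library of 8 h overlapped any earlier one. Both early calls were lost with library totals, with no filter and with the clones pooled. Smg5 in WT had 157, 171, 143 and 142 CPM at 0 h, 187, 174, 192 and 180.4 CPM at 2 h, 229, 218, 229 and 208 CPM at 4 h, and 164, 162, 165 and 156 CPM at 8 h. It was 1.44-fold above 0 h at 4 h (0.53 ± 0.0525, FDR 1.43e-10), fell by 0.45 between 4 h and 8 h (FDR 9.35e-09), and at 8 h did not pass the test against 0 h (0.08 ± 0.0525, FDR 0.213). In clone 2, Smg5 was called higher at 8 h than at 0 h (0.36, with values between 0.25 and 0.40 in the alternatives tried).

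Between the lines, Smg6 was called lower in the libraries labelled clone 4 than in WT at 2 h and 8 h. At 0 h (-0.02 ± 0.121) and 4 h (-0.12 ± 0.0676) the difference did not pass the test. It had 87.2 and 92.8 CPM in clone 2, 71.2 and 70.4 CPM in clone 4, and 88.4, 95.1, 91.3 and 87.2 CPM in WT at 2 h. Clone 4 stood alone (-0.35 ± 0.0700 against WT, FDR 4e-05), and this call held in every alternative tried. At 8 h the values were 60.1 and 63.4 CPM in clone 2, 51.0 and 50.8 CPM in clone 4, and 58.8, 57.6, 64.9 and 58.7 CPM in WT. Clone 4 was again below WT (-0.21 ± 0.0678, FDR 0.0130), a call lost without either clone 4 library (FDR at most 0.0661) and with DESeq2. In clone 2 at 4 h, Smg6 was called above WT at 0.17 ± 0.0663 (FDR 0.0271) with a value of -0.01 under library totals. The call was lost without clone 2 replicate 1 or 2 or WT replicate 1 or 3 (FDR at most 0.211), with no filter and with DESeq2. The clone 2 libraries lay below all WT libraries in Smg5 at 0 h (123 and 129 against 142 to 171 CPM) and 2 h (166 and 169 against 174 to 192 CPM). Even so, Smg5 in clone 2 did not pass the test at any time, and at 8 h its value of 0.00 ± 0.0483 was -0.15 under library totals. In clone 4 it was called once, at 4 h (-0.18 ± 0.0635, FDR 0.0205), and lost that call without either clone 4 library or WT replicate 3 (FDR at most 0.182) and with no filter.

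Comparisons of 8 h with 4 h were added after the values were seen. In clone 2 the 4 called members (38.1% of all genes, 17.9% higher and 20.2% lower) were all lower at 8 h, Smg6 at -0.71 ± 0.0759, Upf3a at -0.60 ± 0.0918, Smg9 at -0.44 ± 0.159 and Smg5 at -0.37 ± 0.0742. The call of Smg9 was lost without any 1 of the 4 clone 2 libraries (FDR at most 0.142). In the libraries labelled clone 4, 6 were called (31.2%, 14.0% higher and 17.2% lower), Smg1 higher at 0.44 ± 0.0978 and 5 lower, of which Smg6 (-0.68 ± 0.0778) and Upf3a (-0.60 ± 0.0921) fell most. In WT, 7 of the 9 were called (45.2% of all genes, 22.4% higher and 22.9% lower), with Smg1 higher and Smg6 (-0.57), Smg5 (-0.45), Smg9 (-0.39), Upf3a (-0.36), Smg8 (-0.31) and Upf1 (-0.21) lower. The difference between a clone and WT in the change over 8 h was tested in the joint fit and called 0 members in clone 2 (7.42% of all genes) and 0 in clone 4 (4.09%). In each, 2 members had an unadjusted p under 0.05, and DESeq2 called 1 in clone 2 and 0 in clone 4. The values nearest to the threshold were 0.28 ± 0.09 for Smg5 in clone 2 (FDR 0.0525) and -0.40 ± 0.126 for Upf2 in clone 4 (FDR 0.0584).

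The clones were also set against each other. Clone 4 against clone 2 called 0 of 9 members at 0 h (23.9% of all genes tested), 5 at 2 h (48.7%), 7 at 4 h (47.6%) and 5 at 8 h (58.4%). At 0 h, edgeR gave 2 members an unadjusted p under 0.05 and DESeq2 called 0. Over all genes, 25.0%, 24.8% and 30.0% were higher in clone 4 at 2, 4 and 8 h and 23.7%, 22.9% and 28.5% lower. Upf3b was the one called member that was higher in clone 4 (0.37 ± 0.125, 0.51 ± 0.113 and 0.27 ± 0.0979 at the 3 times). Upf1, Upf2, Smg6 and Smg8 were lower in clone 4 at all 3 times, Upf2 by the most (-0.62 ± 0.0775, -0.42 ± 0.0765 and -0.50 ± 0.0614, FDR 1.2e-09, 3.93e-05 and 1.92e-09). Smg1 (-0.27 ± 0.0967) and Smg9 (-0.61 ± 0.153) were lower at 4 h. The calls of Upf2 and Smg6 held at each of these times in every alternative tried. The call of Upf3b was lost without clone 2 replicate 1 or clone 4 replicate 2, both at 2 h (FDR at most 0.271) and at 8 h (FDR at most 0.274, and with DESeq2). That of Upf1 at 2 h was lost without clone 2 replicate 1 or either clone 4 library (FDR at most 0.203), with library totals and with DESeq2. That of Smg1 at 4 h was lost without clone 2 replicate 2, either clone 4 library or WT replicate 4 (FDR at most 0.291) and with library totals. At 4 h, Upf1 (FDR 0.0976) and Smg8 (FDR 0.0807) were lost without clone 2 replicate 1.

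Other factors of the pathway, in a list of 23 genes of the exon junction complex, translation termination and the decay machinery, moved both ways. In clone 2 against WT, 2 were higher and 5 lower at 0 h, 5 and 9 at 2 h, 9 and 6 at 4 h, and 5 and 7 at 8 h, with medians between -0.08 and 0.02. In the libraries labelled clone 4, 0 were called at 0 h, and 4 were higher and 7 lower at 2 h, 6 and 8 at 4 h, and 1 and 8 at 8 h. Over all genes, clone 2 was called higher and lower in 22.9% and 22.3% at 0 h, 31.8% and 30.0% at 2 h, 31.1% and 30.8% at 4 h, and 31.7% and 31.8% at 8 h. The shares for clone 4 were 9.28% and 6.60%, 21.7% and 19.6%, 24.6% and 22.5%, and 20.4% and 17.1%. Ruvbl2, which encodes an ATPase that associates with SMG1, averaged 99.4 ± 1.38 CPM in clone 2 and 99.8 CPM in the library labelled clone 4, against 152 ± 24.97 CPM in WT at 0 h. At 8 h it averaged 75.6 ± 1.67 CPM in clone 2 and 85.4 ± 2.27 CPM in clone 4 against 106 ± 0.621 CPM in WT. Pooled KO was lower at each time, with -0.61 ± 0.139 before treatment, -0.46 ± 0.101 after 2 h, -0.60 ± 0.09 after 4 h and -0.38 ± 0.0633 after 8 h. The call at 0 h was lost without clone 2 replicate 1 or 2 (FDR at most 0.0840). Stau2, a double-stranded RNA-binding protein gene, was lower in clone 2 at 2 h (-0.70 ± 0.113), 4 h (-0.87 ± 0.115) and 8 h (-0.98 ± 0.115), where it averaged 10.8 ± 0.208 CPM against 21.4 ± 1.00 CPM in WT. Mov10, a helicase gene, was higher in clone 2 at 8 h (101 ± 4.38 CPM against 63.5 ± 1.77 CPM in WT, 0.68 ± 0.0590). Its change over 8 h differed from that of WT by 0.60 ± 0.109 (FDR 0.000341).

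Over α-amanitin in WT, 10 of the 23 were higher and 7 lower at 4 h, and 9 higher and 7 lower at 8 h. Over all genes, 14.1% were higher and 13.7% lower at 2 h, 24.8% and 27.4% at 4 h, and 25.7% and 25.4% at 8 h. Etf1, the gene of the release factor that recognises stop codons, averaged 368 ± 57.0 CPM at 0 h, 529.8 ± 25.8 CPM at 2 h, 598 ± 55.4 CPM at 4 h and 550.2 ± 12.1 CPM at 8 h. It was higher at all 3 later times (0.53 ± 0.0709, 0.70 ± 0.0710 and 0.58 ± 0.0708). Sap18, the gene of a protein that associates with the exon junction complex, stood at 47.6 ± 3.22, 47.0 ± 5.68, 24.995 ± 2.69 and 58.6 ± 2.50 CPM at the same times, with the low point at 4 h (-0.90 ± 0.0804 against 0 h). Every library of both clones lay above every WT library in Sap18 at each time. At 4 h it had 36.3 and 38.7 CPM in clone 2, 33.4 and 36.9 CPM in clone 4 and 21.2 to 27.5 CPM in WT. For Rnps1, also in the list, both clones lay below every WT library at 0, 2 and 4 h.

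Transcripts reported as substrates of the pathway in mammalian cells, a list of 16, also moved both ways between the lines. In clone 2 against WT, 4 were higher and 4 lower at 0 h, 5 and 4 at 2 h, 5 and 6 at 4 h, and 5 and 5 at 8 h, with medians between -0.04 and 0.05. In the libraries labelled clone 4, 1 was higher and 0 lower at 0 h, 5 and 2 at 2 h, 2 and 4 at 4 h, and 6 and 0 at 8 h, where the median was 0.15 beside -0.01 over all genes. The shares of all genes called higher and lower are those given above with the 23 other factors. At 8 h they were 31.7% and 31.8% for clone 2 and 20.4% and 17.1% for clone 4. Tbl2, a gene of the endoplasmic reticulum stress response, averaged 124 ± 7.30 CPM in clone 2 against 73.6 ± 2.72 CPM in WT at 0 h. It was higher in clone 2 at each time (0.76 ± 0.09, 1.17 ± 0.0692, 1.24 ± 0.0820 and 1.16 ± 0.0645). The libraries labelled clone 4 overlapped WT in Tbl2 at each time (70.2 CPM at 0 h, and 46.3 ± 1.82 CPM at 8 h against 45.9 ± 3.80 CPM in WT). Bag1, a co-chaperone gene, was higher in both clones at 8 h (173 ± 11.96 CPM in clone 2, 140 ± 2.10 CPM in clone 4 and 114 ± 5.05 CPM in WT, 0.48 ± 0.0922 for KO pooled). The pooled call was lost without WT replicate 1, 2 or 3 (FDR at most 0.351). At 0, 2 and 4 h too, every library of both clones lay above every WT library in Bag1. At 0 h it had 149 and 154 CPM in clone 2, 138 CPM in clone 4 and 103 to 126 CPM in WT. Arc, an immediate early gene of neurons, was lower in clone 2 at each time (-0.88 ± 0.193, -3.19 ± 0.179, -1.78 ± 0.209 and -1.74 ± 0.223) and in clone 4 at 2 h (-1.11 ± 0.132) and 4 h (-0.94 ± 0.178). At 2 h it averaged 2.83 ± 0.205 CPM in clone 2, 12.1 ± 1.54 CPM in clone 4 and 26.1 ± 2.71 CPM in WT. Its call in clone 2 at 0 h was lost without clone 2 replicate 1 (FDR 0.0684). Gadd45b, a growth arrest gene, was lower in clone 2 at each time (-0.76 ± 0.140, -1.33 ± 0.108, -1.63 ± 0.128 and -1.42 ± 0.135). Its clone 4 libraries lay below all WT libraries at 0, 2 and 4 h (19.6 ± 1.08 against 26.9 ± 0.717 CPM at 4 h) and overlapped WT at 8 h. Ddit3, which encodes the stress factor CHOP, was higher in clone 2 at each time (0.82 ± 0.144, 1.15 ± 0.119, 1.19 ± 0.122 and 0.97 ± 0.126). The libraries labelled clone 4 also lay above all WT libraries in Ddit3 at each time. At 0 h it had 20.9 ± 3.04 CPM in clone 2, 19.0 CPM in clone 4 and 12.1 ± 1.51 CPM in WT. At 8 h it had 16.9 ± 0.189, 11.4 ± 0.173 and 8.70 ± 0.943 CPM in the same order.

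Over time in WT, 8 of the 16 were higher and 3 lower at both 2 h and 4 h, and 1 was higher and 7 lower at 8 h, where the median was -0.19. Of all genes, 14.1% were higher and 13.7% lower at 2 h, 24.8% and 27.4% at 4 h, and 25.7% and 25.4% at 8 h. Atf3, a stress-response transcription factor gene, was highest at 4 h in every line. At 0, 2, 4 and 8 h it averaged 15.1 ± 3.54, 209.8 ± 20.8, 369.5 ± 1.76 and 15.7 ± 1.97 CPM in clone 2, and 25.2, 163 ± 2.37, 207 ± 12.4 and 20.2 ± 1.35 CPM in clone 4. It averaged 24.8 ± 2.00 CPM at 0 h, 161 ± 7.49 CPM at 2 h, 213 ± 23.4 CPM at 4 h and 18.8 ± 1.03 CPM at 8 h in WT. The change in WT was 2.72 ± 0.0816 at 2 h and 3.11 ± 0.0817 at 4 h, and -3.49 ± 0.0879 between 4 h and 8 h. Atf4 in WT averaged 114 ± 5.91, 189 ± 8.73, 255 ± 11.1 and 117 ± 5.34 CPM at the same times. Both lists were written with earlier results of these data known, many of these transcripts have other regulators, and the counts do not measure decay.

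In the immunoprecipitation lists, Smg1 and Smg6 were named in both the CNT vs RA list and the 2I vs RA list, Upf1 only in the first and Smg5 only in the second. This made 3 of 9 members in each list (33.3%), where 13.0% and 14.9% of the 15850 expressed genes, and 20.4% and 22% of the 9574 genes with a mean of at least 10 CPM, were named. The deposited exon lengths of the 4 named members, summed over annotated exons and not measured on mRNAs, are 43.1 kb (Smg1), 13.9 kb (Smg6), 12.9 kb (Smg5) and 9.09 kb (Upf1), the longest of the 9. Of the 23 other factors, 5 were in the first list and 9 in the second, and of the 16 reported substrates 0 and 4. The lists give no values, direction or threshold, so whether these mRNAs were enriched or depleted with CAPRIN1 could not be read from them.

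Across the 31 libraries, the members did not share 1 profile. Pearson's r of log2(CPM + 1) between the 36 pairs of members ran from -0.739 (Upf3b and Smg8) to 0.871 (Upf3a and Smg5), with a median of 0.273 and 24 positive values. The libraries share lines, times and scaling and fall into 12 groups, so these values describe this set only. Among 10990 genes with a mean of at least 5 CPM, the genes most like the mean profile of the 9 members were Zfp592 (0.925), Brpf3 (0.92) and Rtf1 (0.918). The nearest gene to each member was Brpf3 for Upf1 (0.845) and Smg8 (0.898), Myo6 for Upf2 (0.945), Zbtb2 for Upf3a (0.95), Tia1 for Upf3b (0.837), Birc6 for Smg1 (0.959), Cyth2 for Smg5 (0.947), Eif4b for Smg6 (0.953) and Phyhip for Smg9 (0.875). By annotation, Upf1 overlaps Gdf1 and Cers1, Upf3a and Smg1 overlap non-coding genes, and Smg6 overlaps Srr and Hic1 among others. Since the strand setting of the counting is not known, reads of these neighbours cannot be told apart from theirs.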

How the data were processed

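RNA-seq gave 31 libraries of the 3 lines at 4 times, prepared with a stranded mRNA kit per the labels' protocols, and the RNA immunoprecipitation libraries with a 3′ kit. The deposited RNA-seq files are raw counts per gene in 4 tables, with gene length in bases as a column of another kind, and 2 lists of gene symbols by the authors stand for the immunoprecipitation. Tools named in the submitters' processing notes are Cuffdiff, Cufflinks, DESeq2, TopHat, STAR 2.4.0.1 and FastQC 0.11.9, and the builds named there are mm10 and GRCm38. For the program that counted reads, its strand setting and the gene annotation, a statement is not given in the sources used here. Each table holds 51520 rows, of which 110 repeats were dropped.

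The tests used edgeR 4.0.16 under R 4.3.3 (filterByExpr, TMM, robust quasi-likelihood F test, Benjamini-Hochberg FDR under 0.05 over all genes): KO against WT and the 3 lines within each time, and a joint fit of 12 groups of line and time over 15850 genes. The SE is the log2 difference divided by the square root of F. The fits were checked on simulated counts. CPM uses 1 TMM scaling over the 31 libraries, and SD is over libraries. Alternatives were DESeq2 1.42.0, DESeq2 size factors in edgeR, library totals, no filter, a replicate block, 8 groups, WT alone and leaving out each library. Comparisons of 8 h with 4 h, and of the clones at 2 and 4 h with 0 h, were added after the values were seen. The members and lists were chosen with earlier results of these data known. By rule the text names all members, Caprin1, and at most 4 called genes per list and comparison with the largest change at a mean of 5 CPM or more, and for likeness the 3 nearest genes to the mean profile and 1 per member. Of the genes so chosen, 1 is not reported here. Promoters are from RefSeq (GRCm38.p6).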

Additional observations from a re-analysis of the deposited data

Results flagged for a closer look

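In 4 of 36 sets of 4 WT libraries, 1 library stood apart from the rest by Dixon's test at 95%, which chance gives in about 1 in 20 sets. Smg8 had 59.3 CPM in WT replicate 3 at 2 h, against 66.8 to 67.9 CPM in the others, and 59.0 CPM in WT replicate 3 at 8 h, against 67.8 to 69.3 CPM. Smg6 had 64.9 CPM in WT replicate 3 at 8 h, against 57.6 to 58.8 CPM, and Upf2 had 90.0 CPM in WT replicate 2 at 8 h, against 88.7 to 88.9 CPM.

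The clones differed from each other, by the test of clone 4 against clone 2, in 17 cases. At 2 h these were Upf1 (-0.18), Upf2 (-0.62), Upf3b (0.37), Smg6 (-0.36) and Smg8 (-0.34). At 4 h they were Upf1 (-0.30), Upf2 (-0.42), Upf3b (0.51), Smg1 (-0.27), Smg6 (-0.29), Smg8 (-0.31) and Smg9 (-0.61). At 8 h they were Upf1 (-0.34), Upf2 (-0.50), Upf3b (0.27), Smg6 (-0.26) and Smg8 (-0.35). All are log2 differences with clone 4 on top. The libraries of the clones also differed in Caprin1 and in endoderm and feeder markers, and the part of these in the differences was not tested.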

How the results depend on the processing

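Over the settings other than leaving out a library, most member values kept their side of the threshold, with no change of direction where called. Examples are 266 of 270 with DESeq2 size factors in edgeR, 225 of 270 with library totals and 257 of 270 with DESeq2. A change of sign was counted only where the value was called in at least 1 of the compared fits. Among values called in either fit, the direction reversed under library totals for Smg6 in clone 2 at 4 h (-0.014). The same held for Smg1 (-0.0096) and Smg5 (-0.15) in clone 2 at 8 h. Counts of called members that moved by more than 1.5 times were as follows, each with the genes called among all genes tested in that setting. With DESeq2 size factors, clone 2 against WT at 0 h gave 2 (7728 of 17130) and clone 4 against WT at 8 h gave 1 (5391 of 14387). The change over 8 h in clone 2 minus WT gave 1 (1178 of 15850). With library totals, KO at 0 h gave 2 (4353 of 15659), clone 2 at 0 h gave 4 (8018 of 17130) and clone 4 at 2 h gave 4 (5798 of 13892). In the same setting clone 2 at 4 h gave 3 (8963 of 14039) and the change in clone 2 gave 1 (1176 of 15850). Library totals also turned the split of higher against lower calls, to 0 and 2 for KO at 0 h, 1 and 2 for KO at 4 h, 1 and 3, 1 and 2, 1 and 2, and 2 and 2 for clone 2 at 0, 2, 4 and 8 h, 1 and 5 and 0 and 3 for clone 4 at 4 and 8 h, 2 and 3 for clone 4 against clone 2 at 2 h, and 2 and 2, 3 and 3 and 2 and 6 for WT at 2 and 8 h against 0 h and at 8 h against 4 h. The split over all genes under library totals is not given here. With no filter, KO at 4 h gave 1 (4110 of 28862) and clone 4 at 8 h gave 1 (5241 of 30603). With DESeq2, KO at 4 h gave 1 (4983 of 13324), clone 2 at 4 h gave 3 (7628 of 14039) and clone 4 at 8 h gave 0 (3823 of 14387). The change in clone 2 gave 1 with DESeq2 (1193 of 15850). With the clones pooled into 8 groups, WT at 2 h gave 2 (1722 of 14944). For clone 4 at 8 h against 0 h, the pooled KO group gave 5 (2322 of 14944). Leaving out 1 library gave 0 to 2, 0 to 1, 1 to 2 and 0 to 0 called members for KO at 0, 2, 4 and 8 h, 1 to 2, 1 to 4, 1 to 6 and 4 to 5 for clone 2, 0 to 1, 1 to 4, 3 to 6 and 0 to 2 for clone 4, 0 to 1, 3 to 6, 5 to 7 and 4 to 5 for clone 4 against clone 2, 4 to 6, 7 to 8 and 5 to 6 for WT at 2, 4 and 8 h against 0 h, 7 to 8 for WT at 8 h against 4 h, 3 to 3, 5 to 7 and 5 to 6 for clone 2 at 2, 4 and 8 h against 0 h, 3 to 4 for clone 2 at 8 h against 4 h, 0 to 0, 3 to 3 and 2 to 3 for clone 4 at 2, 4 and 8 h against 0 h, 4 to 5 for clone 4 at 8 h against 4 h, and 0 to 2 and 0 to 1 for the change over 8 h in clone 2 and clone 4 minus WT. Shares over all genes are not given here for the fits that left out 1 library. Where a fit left 1 library in a group, that library was assumed to vary like the others. The cause of these moves was not tested. Depth limits Smg9 most, with a median of 151 counts.

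Replicate numbers did not clearly pair the libraries. Of 20 pairs of the same number and time in other lines, 1 had a correlation of deviations above 0.1, a cut-off chosen here (-0.16 to 0.104). Of 42 pairs of the same line at other times 6 did (-0.0791 to 0.335). Pairs between groups of 2 libraries repeat the same value, so these pairs are not independent. The highest values were in WT between 0 h and 2 h (0.195 and 0.172) or 4 h (0.335 and 0.148), so pairing there was not settled. With the replicate number as a block, KO gave 0 called members at 0 h (0 of 15659 genes were called) and 0 at 4 h (0 of 13324). At 0 h, clone 2 gave 3 (9753 of 17130), clone 4 gave 4 (7520 of 17130) and clone 4 against clone 2 gave 2 (6727 of 17130). At 8 h clone 4 gave 1 (4464 of 14387). With line and replicate as the block, the change in clone 2 minus WT gave 1 (1474 of 15850).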
